A study of Rattus norvegicus with 6 samples.

Results

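Protein quality control in the rat kidney was examined through 41 genes of ER stress and heat shock proteostasis, compared between water and nitrilotriacetic acid (NTA) in renal cortex. The list was drawn up with earlier results of these data known. A listed gene was measured where the transcript accession of an array probe mapped to its symbol in the RefSeq rat gene table. Probes were found for 37 of the 41 genes, 72 in number. All 37 genes passed the filter on dim signal, which required that some group had the probe well above background in each of its 3 animals, and 11965 genes were tested in all. Manf, Edem1, Hspa1b and Dnajb1 had no probe matched by accession and were not analysed here. The 41 genes fall into 3 arms: the unfolded protein arm (12 genes, 10 tested), the ATF4 or amino acid arm (10 genes, 10 tested) and the heat shock arm (19 genes, 17 tested).

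The animals were male Sprague-Dawley rats, 5 weeks old at purchase, on a basal diet with tap water. The control group (n = 3) was given water and the other group (n = 3) the trisodium monohydrate salt of NTA, which binds metal ions. The daily dose was 1000 mg per kg, and both groups were treated for 4 weeks. Each animal's cortex gave 1 Cy3 array, and the series calls the animals biological replicates. The series asks which genes differ in expression between these groups.

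Secretory and membrane proteins fold in the endoplasmic reticulum (ER) with the help of resident chaperones. When unfolded protein builds up there, the sensors ATF6, IRE1 and PERK act: ATF6 and the IRE1-spliced form of XBP1 induce chaperones and the machinery of ER-associated degradation, while PERK phosphorylates eIF2alpha and so favours translation of ATF4. ATF4, which amino acid shortage and heme deficiency also engage, induces amino acid synthesis genes and the stress genes Ddit3, Trib3 and Chac1. In the cytosol and nucleus, HSF1 drives heat shock protein genes when misfolded protein occupies the chaperones that hold HSF1 inactive. In kidney, the tubules of the medulla carry small heat shock proteins at high levels, in a salty and urea-rich milieu. The proximal tubule of the cortex is rich in mitochondrial protein.

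The 75th percentile of processed signal was 1296 to 1316 in water and 1133 to 1220 in NTA, lower on every NTA array than on any water array. The share of the 61657 probes above background was 68.4% to 73.5%. Levels below are log2 signal relative to the 75th percentile of the same array. Levels of different genes come from different probes and are not compared with each other. Any pair of arrays correlated at 0.990 to 0.994 (Pearson's r over genes, which are no independent replicates). Water 1 and NTA 2 shared 1 slide and were scanned on a later day than the others. On the earlier day water 2 and water 3 shared a slide, and so did NTA 1 and NTA 3. The 7 proximal tubule markers were well above background on every array, with mean list levels of 7.19 to 7.27 in water and 7.07 to 7.27 in NTA. In tissue RNA, fewer cells of a type and less RNA per cell cannot be told apart.

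No member passed the test, which was limma with Benjamini-Hochberg adjustment over all 11965 genes at 0.05. Over all genes 9 passed (0.0752%), each of them higher in NTA, and 0% passed as lower. That 9 fell to 0 without any single array except NTA 2, where it was 4. It was also 0 under quantile normalization, without the filter on dim probes, and with scan day or replicate number as a block. The lowest adjusted p among the members was 0.181, for Sdf2l1, an ER cochaperone partner of the chaperone BiP. At an unadjusted p under 0.05, 5 of 37 members were higher (13.5%, against 7.76% of all genes) and 1 was lower (2.7%, against 4.51%). The groups did not overlap for 6 members on the higher side (16.2%, against 13.0% of all genes) and for 3 on the lower side (8.1%, against 7.25%). Shares of 37 genes are coarse, and these lie near the background. Of the members 22 had a log2 difference above 0 (59.5%, against 56.4%), their median was 0.04, and the median of all genes was 0.02. For 30 of the 37 members the difference was under 1.2-fold in either direction, as it was for 9879 of all 11965 genes.

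**Figure D1:**
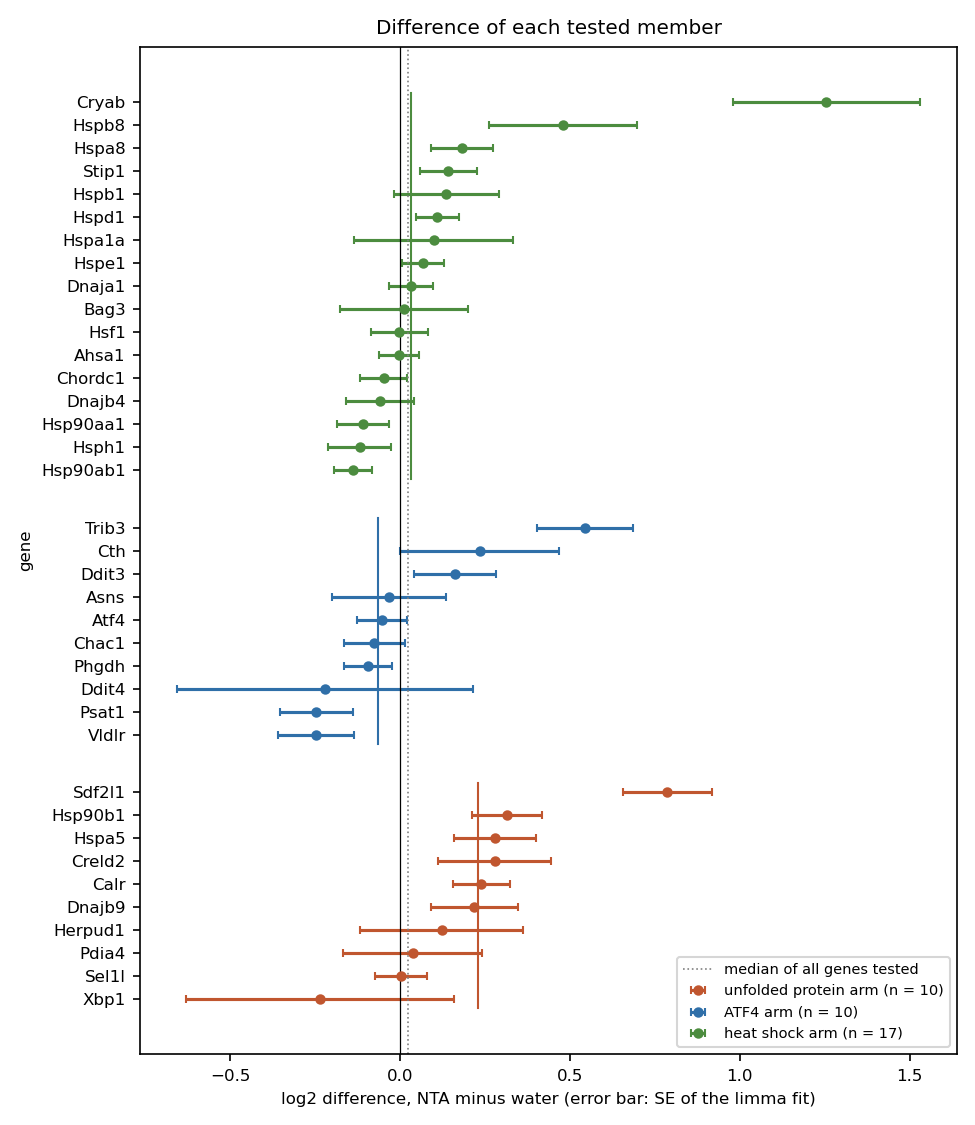
Log2 difference between NTA and water (x axis) for each of the 37 tested members (y axis), with the SE of the limma fit as error bar and a vertical line at each arm's median. The unfolded protein genes lie mostly to the right of 0 (median 0.23), the ATF4 genes mostly to the left (median -0.07) and the heat shock genes around 0 (median 0.03), with Cryab, Sdf2l1, Trib3 and Hspb8 at the far right.

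In the unfolded protein arm most genes stood higher in NTA. Of its 10 tested genes 9 had a difference above 0, with a median of 0.23, against 0.02 for all genes. At an unadjusted p under 0.05, 3 were higher and 0 lower, against 7.76% and 4.51% of all genes. For 3 genes the groups stood apart on the higher side and for 0 on the lower, against 13.0% and 7.25%. None passed the test over all genes. Without water 2, 1 was higher and 0 lower at that p (6.95% and 4.16% of all genes). With slide as a fixed block 5 of the 10 were above 0, and 0 were higher and 2 lower at that p (6.47% and 4.61% of all genes). The members are described below from luminal chaperones to regulators and degradation factors.

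Sdf2l1 showed the widest separation of the arm. Its levels were 2.13, 1.99 and 1.83 in water and 2.99, 2.58 and 2.74 in NTA. Every NTA value exceeded every water value, and the gap between the groups was wider than the range within water. The difference was 0.79 ± 0.13 (SE of the fit, n = 3 per group), or 1.73-fold with a 95% interval of 1.38 to 2.16, and the adjusted p was 0.181. All 3 Sdf2l1 probes placed it higher, at 0.76 to 0.83. Over 17 alternative ways of processing, the difference ran from 0.45 to 0.88 and the adjusted p from 0.0879 to 0.489.

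Hsp90b1 encodes GRP94, the HSP90 of the ER lumen. Its levels were 3.42, 3.19 and 3.09 in water and 3.49, 3.64 and 3.51 in NTA. The groups did not overlap, with water 1 close below the NTA arrays. The difference was 0.31 ± 0.10 (adjusted p = 0.344), and the second probe of the gene gave 0.16. Calr, the calcium-binding lectin chaperone calreticulin, stood at 3.30, 3.16 and 3.14 in water and 3.56, 3.40 and 3.35 in NTA. Here too the groups did not overlap, by a narrow margin between water 1 and NTA 3, and the difference was 0.24 ± 0.08 (adjusted p = 0.356).

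Hspa5 encodes BiP, the HSP70 of the ER and the usual gauge of the unfolded protein response. Its levels were 5.22, 4.94 and 4.99 in water and 5.54, 5.22 and 5.25 in NTA. NTA 1 was the highest array, and the other NTA arrays lay level with water 1, so the groups overlapped. The difference was 0.28 ± 0.12, or 1.21-fold with a 95% interval of 0.985 to 1.49 (adjusted p = 0.435). Larger rises of BiP than 1.49-fold thus lie outside the interval. Within scan day 1 Hspa5 differed by 0.42, and within the shared slide by -0.01.

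The promoters of these chaperone genes are shown because they carry the ER stress element, the CCAAT and CCACG pair through which NF-Y and ATF6 act. Its letters, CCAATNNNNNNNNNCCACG, were searched on both strands of the 250 bases before each RefSeq start site (GRCr8). They occurred in 5 of the 11 promoters of the unfolded protein arm that the table holds (Hspa5, Xbp1, Hsp90b1, Calr and Creld2), against 22 of all 33469 promoters (0.0657%). Matches numbered 0 of 10 in the ATF4 arm and 0 of 14 in the heat shock arm. Capitals mark the match, which reads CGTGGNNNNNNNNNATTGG where it lies on the opposite strand. Sdf2l1 is shown because its difference was the widest of the arm while its window holds no exact match. A match describes letters and is not evidence of binding.
Hspa5, chr3:38452766-38453015, plus strand: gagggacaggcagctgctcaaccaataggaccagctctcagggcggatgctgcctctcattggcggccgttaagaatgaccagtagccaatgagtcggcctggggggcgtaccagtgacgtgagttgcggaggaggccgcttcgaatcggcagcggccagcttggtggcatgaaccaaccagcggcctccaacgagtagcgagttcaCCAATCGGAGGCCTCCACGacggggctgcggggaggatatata
Hsp90b1, chr7:23012294-23012543, minus strand: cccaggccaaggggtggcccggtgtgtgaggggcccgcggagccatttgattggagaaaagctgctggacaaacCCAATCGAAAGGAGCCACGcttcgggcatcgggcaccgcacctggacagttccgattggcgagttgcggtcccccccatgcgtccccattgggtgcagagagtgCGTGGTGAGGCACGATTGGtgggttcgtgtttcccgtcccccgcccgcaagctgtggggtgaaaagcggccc
Calr, chr19:40213117-40213366, plus strand: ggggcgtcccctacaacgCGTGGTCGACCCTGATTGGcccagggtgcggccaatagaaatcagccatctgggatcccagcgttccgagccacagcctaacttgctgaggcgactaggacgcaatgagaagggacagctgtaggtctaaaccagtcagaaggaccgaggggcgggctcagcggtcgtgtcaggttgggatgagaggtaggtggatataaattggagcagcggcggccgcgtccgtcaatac
Sdf2l1, chr11:97376628-97376877, plus strand: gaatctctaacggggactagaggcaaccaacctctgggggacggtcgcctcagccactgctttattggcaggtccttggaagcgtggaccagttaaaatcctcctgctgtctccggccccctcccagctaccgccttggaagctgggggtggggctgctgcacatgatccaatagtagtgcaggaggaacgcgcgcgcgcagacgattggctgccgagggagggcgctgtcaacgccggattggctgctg

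The match began 43 bases before the start site in Hspa5, 176 and 72 bases before it in Hsp90b1 and 232 bases before it in Calr. The 5 genes with a match did not all share 1 sign. Hspa5, Hsp90b1, Calr and Creld2 had differences of 0.28, 0.31, 0.24 and 0.28, while Xbp1 had -0.24 ± 0.39. The sign of Xbp1 rests on NTA 2, without which its difference was 0.22. The shorter second ER stress element, ATTGGNCCACG, was found in the promoter of Herpud1, and in 14 of all promoters (0.0418%). The unfolded protein response element TGACGTGG was found in none of these 11 promoters and in 0.52% of all.

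Xbp1, the transcription factor that IRE1 activates by splicing, was uneven among NTA animals. Its levels were 2.25, 2.16 and 2.51 in water and 2.65, 1.16 and 2.41 in NTA. NTA 2 lay far below the other 5 arrays, with its spot marked neither saturated nor as an outlier. The difference of -0.24 ± 0.39 (adjusted p = 0.845) turned to 0.22 without NTA 2. Where the probe lies relative to the intron that IRE1 removes was not examined, so splicing was not analysed here.

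Dnajb9 (ERdj4), an ER cochaperone and a target of spliced XBP1, stood at 0.13, 0.08 and 0.52 in water and 0.52, 0.39 and 0.48 in NTA. Water 3 was the highest of the 6, and the difference was 0.22 ± 0.13 (adjusted p = 0.548). Creld2, a secreted ER stress protein, differed by 0.28 ± 0.17, and Pdia4, a disulfide isomerase, by 0.04 ± 0.21. Both were lowest among NTA animals in NTA 2, and the level of Pdia4 there (-0.99) was the lowest of all 6 arrays. Herpud1, which serves ER-associated degradation, differed by 0.12 ± 0.24, and without water 1, its lowest array at 3.38, by -0.11. Sel1l, the adaptor of the ER ubiquitin ligase HRD1, differed by 0.00 ± 0.08, with a 95% interval of 0.879-fold to 1.14-fold.

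A further 36 genes of the same response were listed as context, and 30 were tested. In this context list 21 were above 0 (70.0%, against 56.4% of all genes), the median was 0.06, and 0 passed over all genes. Within the shared slide 15 of the 30 were above 0, with a median of 0.003. Within scan day 1, 24 were, with a median of 0.09. The groups did not overlap for 9 genes on the higher side (30.0%, against 13.0% of all genes). On the lower side this held for 1 (3.33%, against 7.25%). The 3 of smallest p were Derl3, Hyou1 and Syvn1. Derl3, a channel component of ER-associated degradation, stood at -1.37, -0.51 and -1.24 in water and 0.62, 0.54 and -0.17 in NTA. The groups did not overlap, with a difference of 1.37 ± 0.31, or 2.58-fold (adjusted p = 0.228). Hyou1, an ER chaperone of the HSP110 family, differed by 0.29 ± 0.07 (adjusted p = 0.266), and Syvn1, which encodes HRD1, by 0.21 ± 0.06 (adjusted p = 0.282). The sensor genes Ern1 (0.05 ± 0.14) and Atf6 (-0.09 ± 0.13) overlapped between groups.

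**Figure D2:**
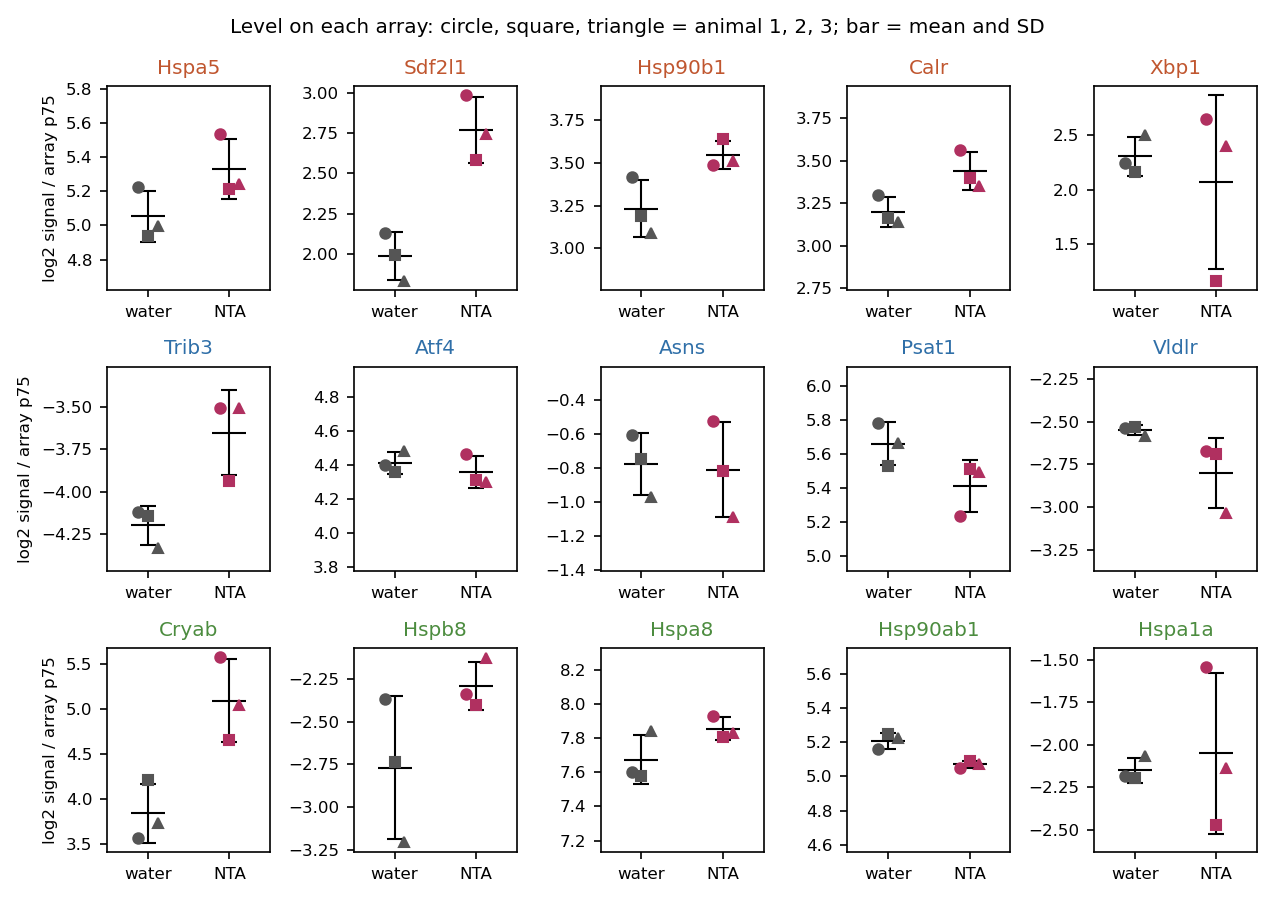
Level on each array (y axis, log2 signal relative to the array's 75th percentile) in water and NTA animals (x axis) for 15 members, with the mean and SD of 3 arrays. The groups do not overlap for Sdf2l1, Hsp90b1, Calr, Trib3 and Cryab on the higher side or for Psat1, Vldlr and Hsp90ab1 on the lower side, and NTA 2 lies far below the other arrays for Xbp1.

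The ATF4 arm did not move together. Of 10 genes 3 were above 0 and 7 below, with a median of -0.07, and none passed the test. At an unadjusted p under 0.05, 1 gene, Trib3, was higher, and 0 were lower, against 7.76% and 4.51% of all genes. Under quantile normalization 1 was higher and 3 lower, against 6.17% and 5.66%. The groups did not overlap for 1 gene on the higher side and for 2 on the lower, against 13.0% and 7.25% of all genes.

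Atf4 itself stood at 4.40, 4.36 and 4.48 in water and 4.47, 4.31 and 4.30 in NTA. The groups overlapped, and the difference was -0.05 ± 0.07 (adjusted p = 0.811), with a 95% interval of 0.849-fold to 1.09-fold. ATF4 is controlled largely at translation, which an array of RNA does not measure. Ddit3 encodes CHOP, a transcription factor of prolonged stress. Its levels were 2.58, 2.66 and 2.72 in water and 3.05, 2.78 and 2.62 in NTA, a difference of 0.16 ± 0.12 (adjusted p = 0.630) in which NTA 1 stood apart.

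Trib3, a pseudokinase that ATF4 and CHOP induce and that restrains AKT, stood at -4.12, -4.14 and -4.33 in water and -3.51, -3.94 and -3.51 in NTA. No value of one group lay within the other, although NTA 2 was nearer to water than the other NTA arrays. The difference was 0.54 ± 0.14, or 1.46-fold (adjusted p = 0.274, and 0.201 to 0.684 over the alternatives), with 0.73 within scan day 1 and 0.18 within the shared slide. These are dim signals, though well above background on all 6 arrays. Chac1, a glutathione-degrading enzyme and another target of the PERK branch, differed by -0.08 ± 0.09 with overlapping groups. Of its 3 probes 1 was bright enough to be kept.

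The Trib3 promoter is shown because Trib3 alone of the arm had separated groups on the higher side (1 of 10, against 13.0% of all genes). The letters TGATGNAA of the ATF4 response element, searched on both strands, occurred there 21 bases before the start site, on the opposite strand, and in the Chac1 promoter 167 bases before it. They occurred in 2 of the 10 promoters of the arm and in 3.4% of all promoters. Capitals mark the match.
Trib3, chr3:161275534-161275783, minus strand: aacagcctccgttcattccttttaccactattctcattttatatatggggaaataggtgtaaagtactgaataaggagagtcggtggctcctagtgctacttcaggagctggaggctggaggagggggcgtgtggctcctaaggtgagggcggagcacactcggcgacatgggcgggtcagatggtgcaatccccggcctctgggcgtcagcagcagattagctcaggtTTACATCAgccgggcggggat

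Asns encodes asparagine synthetase, which ATF4 raises when amino acids are short. It stood at -0.61, -0.75 and -0.97 in water and -0.52, -0.82 and -1.08 in NTA. The NTA arrays spanned the water arrays, and the difference was -0.03 ± 0.17 (adjusted p = 0.961). Psat1 and Phgdh catalyse steps of serine synthesis. Psat1 stood at 5.78, 5.53 and 5.66 in water and 5.24, 5.51 and 5.49 in NTA, and the groups were just apart. Its difference was -0.25 ± 0.11 (adjusted p = 0.435), -0.27 within the shared slide and -0.23 within scan day 1, and the second probe gave -0.37. Phgdh stood at 6.85, 6.78 and 6.77 in water and 6.60, 6.78 and 6.73 in NTA. NTA 2 equalled water 2 to this precision, and the difference was -0.10 ± 0.07 (adjusted p = 0.625).

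Vldlr, a lipoprotein receptor that ATF4 can induce, stood at -2.54, -2.53 and -2.58 in water and -2.67, -2.69 and -3.04 in NTA. All NTA values lay below all water values, NTA 3 most of all, and the difference was -0.25 ± 0.11 (adjusted p = 0.447). Cth, cystathionine gamma-lyase of the transsulfuration pathway, differed by 0.23 ± 0.23. Ddit4 (REDD1), an inhibitor of mTORC1, differed by -0.22 ± 0.44, and its water SD of 0.895 came from water 2 at 3.47 against 1.93 and 1.92 on the others. Without water 2 the difference of Ddit4 was 0.30.

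Of 41 further ATF4 pathway genes listed as context 35 were tested, with a median of 0.00, 19 above 0 and 0 passing over all genes. Groups stood apart on the higher side for 5 (14.3%, against 13.0% of all genes). That count includes Slc1a4, whose water levels lay mostly in the background. On the lower side they did for 2 (5.71%, against 7.25%). Gdf15, a stress cytokine, stood between -1.24 and -0.28 in water and between 0.28 and 1.09 in NTA. The groups did not overlap, and the difference was 1.40 ± 0.33, or 2.64-fold (adjusted p = 0.233). Slc1a4, a neutral amino acid transporter, was well above background on 1 of the 3 water arrays and on all 3 NTA arrays, so its water levels of -6.68, -5.57 and -6.30 lay mostly in the background and no difference is given. Its NTA levels were -4.23, -5.24 and -4.72. Jdp2, a repressor of the AP-1 family, differed by 0.42 ± 0.15 (adjusted p = 0.357). The eIF2alpha kinase PERK, encoded by Eif2ak3, differed by 0.13 ± 0.09.

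The heat shock arm was centred on no change as measured, with 10 of 17 genes above 0 and a median of 0.03, against 0.02 for all genes. None passed the test. For 15 of the 17 the difference was under 1.2-fold, as it was for 9879 of all 11965 genes. The exceptions in the arm were both small heat shock proteins, Cryab and Hspb8. At an unadjusted p under 0.05, Cryab was higher and Hsp90ab1 lower, against 7.76% and 4.51% of all genes. The arm's median turned to -0.02 under quantile normalization.

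Cryab encodes alpha B-crystallin, an ATP-independent holdase of the small heat shock family. Its levels were 3.57, 4.21 and 3.74 in water and 5.58, 4.66 and 5.05 in NTA. Every NTA value exceeded the highest water value, and NTA 2 came nearest to water 2. The difference was 1.26 ± 0.28, or 2.39-fold with a 95% interval of 1.49 to 3.82 (adjusted p = 0.226). It was 1.09 within the shared slide, 1.34 within scan day 1, and 1.01 to 1.47 over the alternatives, where the adjusted p ran from 0.153 to 0.488. Cryab is abundant in the inner medulla, so markers of other regions are given beside it. Of 8 tested genes of the collecting duct and inner medulla, 3 were above 0 and 5 below, with a median of -0.11. Their mean level was 2.14 to 2.49 in water and 2.13 to 2.29 in NTA, and none of the 8 was below background. The water channel Aqp2 differed by 0.04 ± 0.12 and the inner medullary urea transporter Slc14a2 by -0.20 ± 0.16. Of 5 tested genes of the medulla's osmotic response, Akr1b1 (aldose reductase) differed by 0.38 ± 0.11, with separated groups, while the list's median was 0.07. Smooth muscle, which also contains Cryab, had a median of 0.01 over 4 genes, with mean levels of -0.64 to -0.38 in water and -0.69 to -0.25 in NTA. Among 7 genes of tubular injury 6 were above 0, with a median of 0.45 and mean levels of 0.62 to 0.94 in water and 1.06 to 1.48 in NTA. These lists do not measure how much medulla a sample held, and the part of any of them in the Cryab difference was not tested.

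Hspb8, a small heat shock protein that works with the cochaperone Bag3 in selective autophagy, stood at -2.37, -2.73 and -3.20 in water and -2.34, -2.40 and -2.13 in NTA. Water 1 lay among the NTA arrays, and the difference was 0.48 ± 0.22 (adjusted p = 0.451). It was 0.74 within scan day 1 and -0.03 within the shared slide. Bag3 differed by 0.01 ± 0.19, and Hspb1 (HSP27) by 0.14 ± 0.16, both with overlapping groups. The small heat shock proteins therefore did not share Cryab's separation.

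The inducible cytosolic HSP70, Hspa1a, is the most used readout of HSF1. Its levels were -2.18, -2.20 and -2.07 in water and -1.54, -2.47 and -2.14 in NTA. The NTA arrays spanned the water arrays, with NTA 1 highest and NTA 2 lowest of the 6. The difference was 0.10 ± 0.23 (adjusted p = 0.899), with a 95% interval of 0.718-fold to 1.60-fold, and without NTA 1 it was -0.16. Hspa1a and Hspa1b are near-identical copies, so the probe's signal may come from both. Hsf1 stood at 1.096, 1.05 and 1.15 in water and 1.24, 1.07 and 0.98 in NTA, a difference of 0.00 ± 0.08 (adjusted p = 0.996). Immediate early genes, which handling of tissue can raise, had a median of -0.02 over 9 genes and mean levels of -0.67 to -0.22 in water and -0.71 to -0.30 in NTA.

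Hspa8 encodes HSC70, the constitutive cytosolic HSP70. It stood at 7.61, 7.58 and 7.84 in water and 7.93, 7.81 and 7.83 in NTA. Only water 3 reached into the NTA range, and the difference was 0.18 ± 0.09 (adjusted p = 0.486), with all 8 probes above 0 at 0.09 to 0.18. Hsp90ab1, the constitutive cytosolic HSP90, stood at 5.16, 5.25 and 5.22 in water and 5.05, 5.09 and 5.07 in NTA. The groups did not overlap, with a difference of -0.14 ± 0.06 (adjusted p = 0.404), but its 5 probes differed in sign, from -0.14 to 0.02. Hsp90aa1, the inducible HSP90, differed by -0.11 ± 0.08, and all 6 of its probes were below 0, at -0.25 to -0.06. Hsph1 (HSP110), the nucleotide exchange factor of HSP70, differed by -0.12 ± 0.09. The cochaperones Stip1 (0.14 ± 0.08), Dnaja1 (0.03 ± 0.07), Ahsa1 (0.00 ± 0.06), Chordc1 (-0.05 ± 0.07) and Dnajb4 (-0.06 ± 0.10) overlapped between groups.

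Hspd1 and Hspe1 encode HSP60 and HSP10, which form the folding chamber of mitochondria. Hspd1 stood at 6.37, 6.42 and 6.34 in water and 6.44, 6.57 and 6.45 in NTA. All NTA values were higher, by a narrow margin, and the difference was 0.11 ± 0.06 (adjusted p = 0.544). Its 5 probes were all above 0, at 0.02 to 0.11. Hspe1 differed by 0.07 ± 0.06 with overlapping groups, and its second probe gave 0.06.

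The promoter between these genes is shown because they are transcribed away from each other and their 250-base windows share 211 bases. The heat shock element GAANNTTCNNGAA, searched on both strands, matched at overlapping positions in that shared stretch, beginning 65 and 60 bases before the start site of Hspe1. The element occurred in 4 of 14 promoters of the arm (Hspa8, Hsph1, Hspd1 and Hspe1), counting the shared stretch for both genes, in 0 of 11 of the unfolded protein arm, 0 of 10 of the ATF4 arm and in 0.663% of all promoters. Of the 4 genes Hspa8, Hspd1 and Hspe1 had differences above 0 and Hsph1 below, and Hspe1 turned below 0 under quantile normalization and normexp. Capitals mark both matches as 1 run.
Hspe1, chr9:64084077-64084326, plus strand: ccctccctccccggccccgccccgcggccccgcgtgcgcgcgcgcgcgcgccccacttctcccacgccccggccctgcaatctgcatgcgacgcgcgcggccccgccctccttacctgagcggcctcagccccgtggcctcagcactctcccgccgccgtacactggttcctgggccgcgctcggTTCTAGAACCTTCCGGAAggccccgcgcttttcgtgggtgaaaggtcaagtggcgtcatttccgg

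Of 52 further heat shock and cytosolic chaperone genes listed as context 51 were tested. In this list 30 were above 0, the median was 0.01 and 0 passed over all genes. Groups stood apart on the higher side for 10 (19.6%, against 13.0% of all genes). On the lower side they did for 2 (3.92%, against 7.25%). The 3 of smallest p were Dnajc7, a cochaperone of HSP70 and HSP90, at -0.22 ± 0.06 (adjusted p = 0.283), Dnajb2 at 0.18 ± 0.06 (adjusted p = 0.334) and Trap1, the mitochondrial HSP90, at 0.16 ± 0.06 (adjusted p = 0.388). Hspb2, the close neighbour of Cryab in the genome, differed by -0.01 ± 0.08. Proteasome subunits, which clear what chaperones cannot refold, had 21 of 30 genes above 0 (70.0%, against 56.4%), a median of 0.04 and 0 passing. Groups stood apart on the higher side for 7 (23.3%, against 13.0% of all genes) and on the lower for 0 (against 7.25%). The highest difference in that list was 0.13, and its 3 genes of smallest p were Psma5 (0.13 ± 0.06), Psma4 (0.12 ± 0.05) and Psmd4 (0.13 ± 0.06).

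In every arm NTA 1 had the highest mean level of the NTA arrays. In the unfolded protein arm NTA 1 was the highest of the 6 arrays for 7 of 10 genes, and NTA 2 was the lowest NTA array for 8 of 10. In the ATF4 arm these counts were 4 of 10 and 3 of 10, and in the heat shock arm 6 of 17 and 6 of 17. The same counts over all genes were not made. The unfolded protein arm's mean level was 1.95, 1.85 and 1.95 in water and 2.31, 1.89 and 2.16 in NTA. NTA 2 thus lay within the water range. Its place there rests on Xbp1, which stood at 1.16 in NTA 2 and at 2.16 to 2.65 on the other arrays. The 30 tested context genes of this response had mean levels of 1.33 to 1.36 in water and 1.47, 1.45 and 1.48 in NTA. These means rest in part on Derl3, at -1.37, -0.51 and -1.24 in water and 0.62, 0.54 and -0.17 in NTA. Between NTA 2 and water 1 the median difference of the context genes was 0.003. In the heat shock arm NTA 1 was highest of the 6 for 6 of 17 genes, and the mean levels were 2.92, 2.92 and 2.89 in water and 3.09, 2.99 and 3.00 in NTA. In the ATF4 arm they were 1.51, 1.68 and 1.48 in water and 1.67, 1.51 and 1.49 in NTA. All 3 NTA arrays lay within the water range, whose upper end comes from Ddit4 in water 2 (3.47, against 1.93 and 1.92). The heat shock means rest in part on Cryab, at 3.57, 4.21 and 3.74 in water and 5.58, 4.66 and 5.05 in NTA. The macrophage list was also lowest in NTA 2, where its mean level was 0.66, against 1.43 and 1.47 in the other NTA animals and 0.89 to 1.29 under water. For 4 of its 5 genes NTA 2 was the lowest array, the exception being Csf1r. The red blood cell list was highest in NTA 2, at 5.26, against 4.78 and 4.72 in the other NTA animals and 4.58 to 4.75 under water. NTA 2 was also the lowest of the 6 for the collecting duct and inner medulla list (2.13, against 2.14 in water 2). It was the highest for smooth muscle (-0.25, against -0.38 in water 1) and proximal tubule (7.273, against 7.272 in water 2). These lists were picked out after their values were seen. Whether the cell makeup of NTA 2 bears on its ER genes was not tested.

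Within scan day 1, where water 2 and water 3 are set against NTA 1 and NTA 3, all 10 unfolded protein genes were above 0 and their median was 0.33. Within the shared slide, where NTA 2 is set against water 1, 5 of the 10 were above 0 and the median was 0.05. On scan day 1 slide and group cannot be told apart, and the shared slide holds 1 animal per group. Of all 37 members 12 were above 0 in both comparisons, 8 below in both, and 17 opposite in sign. Of the unfolded protein genes 5 were above 0 in both and 5 opposite in sign. Hsp90b1 (0.22 and 0.36), Calr (0.10 and 0.31) and Sdf2l1 (0.45 and 0.95) were above 0 within the shared slide and within scan day 1, in that order. For these genes this had to follow, because their groups do not overlap. Dnajb9 (0.26 and 0.20) and Herpud1 (0.30 and 0.03), whose groups overlap, were also above 0 in both. The ATF4 arm had medians of -0.02 and -0.07 in those comparisons, and the heat shock arm -0.03 and 0.04.

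**Figure D3:**
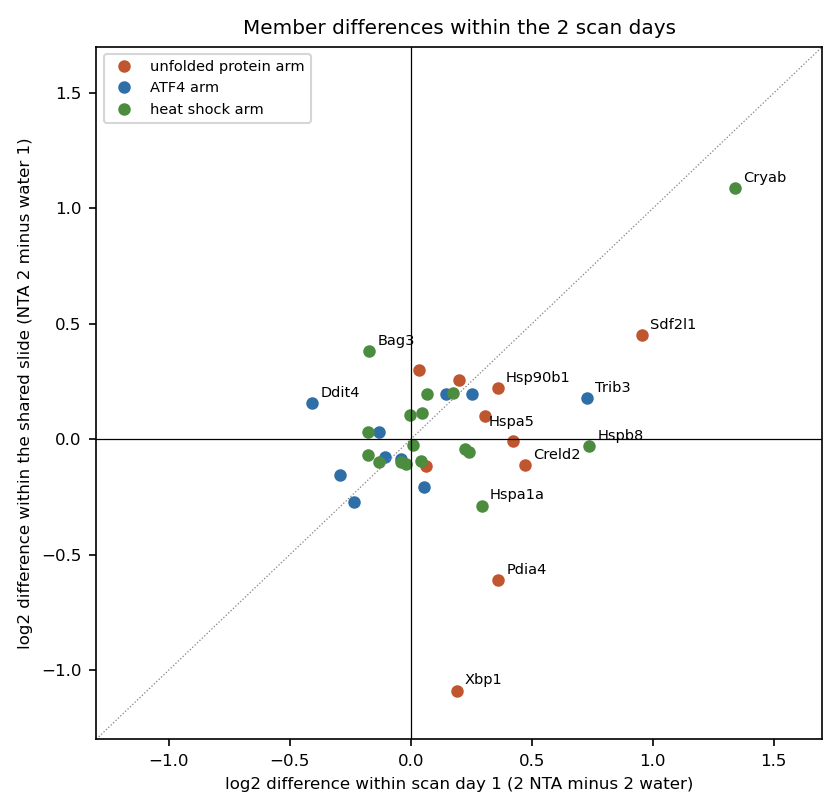
Log2 difference of each of the 37 members within scan day 1 (x axis, 2 NTA against 2 water arrays) and within the shared slide (y axis, NTA 2 against water 1). The dotted line marks equal values. Cryab and Sdf2l1 lie in the upper right, and Xbp1 and Pdia4 lie to the right of 0 on the x axis and well below 0 on the y axis.

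The order of the arms by median, unfolded protein above heat shock above ATF4, was 0.23, 0.03 and -0.07. It was kept in every alternative tried except slide as a fixed block, where the shared slide alone compares the groups and the medians were 0.05, -0.03 and -0.02. No test of the difference between arms was made, because the genes were chosen with earlier results of these data known.

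**Figure D4:**
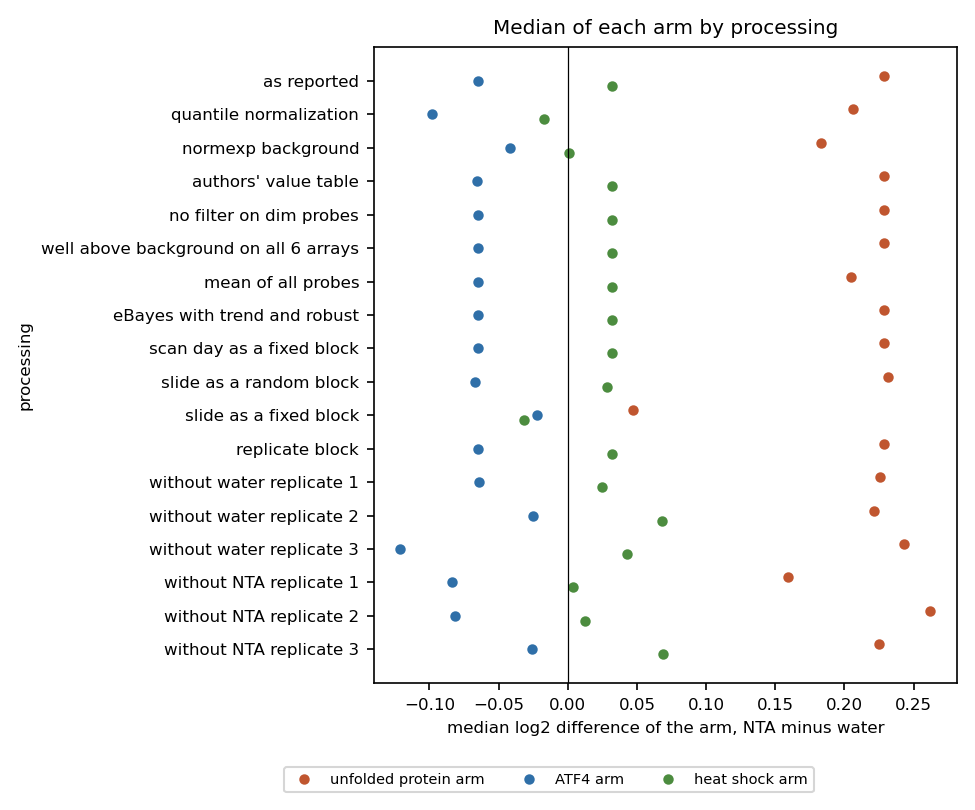
Median log2 difference (x axis) of each arm as reported and under each alternative (y axis). The unfolded protein arm stays to the right of both other arms in all of them, between 0.05 and 0.26.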

How the data were processed

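Scanner files and a value table were used. The linear intensity values that the authors deposited are background-corrected processed signals of single spots, made with Agilent Feature Extraction 10.7.1.1 per the file headers (10.7 per the submitters' processing notes) and not scaled between arrays. Each entry of the deposited table is a ratio, the processed signal over 1 constant per array within 0.0718% of its 75th percentile, a scaling found from the values. Column medians were 0.110 to 0.115, with no centring.

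Here log2 processed signal was taken relative to the 75th percentile of each array's 61657 probes that are not controls. Spots marked as outliers were left out. Of these probes 27460 received 1 symbol (15284 genes) and 34197 none, from the RefSeq table of GRCr8 by accession without version. A gene was represented by its brightest kept probe. NTA was compared with water over 6 arrays with limma 3.58.1 (R 4.3.3, lmFit and eBayes, two-sided, no covariate), which was also tested on simulated data. Intervals (95%) use the fit's SE. The number of arrays limits the precision. The p-values rest on the spread between 3 arrays a group, 1 per animal, with the variance moderated over all genes. Animal, array and slide variation cannot be told apart in that spread.

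Members, arms and context lists were chosen with earlier results of these data known. The genes given in full are, by rule, the 5 of smallest p in each arm, those whose groups do not overlap, and Hspa5, Xbp1, Atf4, Ddit3, Asns, Hspa1a, Hsf1 and Cryab. The 3 of smallest p are named from each context list. Other genes named were chosen after their values were seen. Alternatives covered scaling, background, value source, filter, probe choice, variance model, slide, scan day, replicate number and single arrays. Normexp used the median spot signal, the mean not being among the columns used here. Promoter sequences are from RefSeq (GRCr8), and 35 of 41 members had one.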

Additional observations from a re-analysis of the deposited data

How the results depend on the processing

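No member passed the test in any of the 17 alternatives, and the lowest adjusted p was 0.0879 (Sdf2l1, mean of all probes). The count of genes passing over all genes, 9 as reported, was 0 under quantile normalization, without the filter on dim probes, with scan day as a fixed block and with the replicate block, 5 with slide as a fixed block, 22 with normexp background correction, 38 when eBayes used a trend and robust estimates, and 0 to 4 without 1 array (4 without NTA 2, and 0 without any other). The share of higher genes among those at an unadjusted p under 0.05 was 63.2% as reported and 52.2% under quantile normalization. The replicate numbers do not pair the animals (deviations of same-numbered arrays correlated at 0.0728, -0.0916 and 0.0358, and not every array correlated best with its own number), and the replicate block changed no call of a member. The median of the heat shock arm moved from 0.03 to -0.017 under quantile normalization and to -0.032 with slide as a fixed block, which also took the unfolded protein arm from 0.23 to 0.047. Without 1 array the medians ran from 0.16 to 0.26 (unfolded protein), -0.12 to -0.025 (ATF4) and 0.0036 to 0.069 (heat shock). For the unfolded protein arm the lowest was without NTA 1. For the ATF4 arm the lowest was without water 3 and the nearest to 0 without water 2.

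Differences of members that changed sign, none of them called, were as follows. With slide as a fixed block they were Pdia4 at -0.61, Hspa1a at -0.29, Sel1l at -0.12, Creld2 at -0.11, Stip1 at -0.054, Hspb1 at -0.044, Hspb8 at -0.032, Hspa5 at -0.0082, Hsp90aa1 at 0.031, Chac1 at 0.032 and Ddit4 at 0.16. Under quantile normalization they were Bag3 at -0.036, Dnaja1 at -0.025 and Hspe1 at -0.0074, under normexp Hspe1 at -0.021 and Sel1l at -0.0083, with the mean of all probes Sel1l at -0.0052 and with slide as a random block Bag3 at -0.0056. Leaving out 1 array at a time moved Ahsa1 from -0.022 to 0.025, Asns from -0.17 to 0.11, Bag3 from -0.13 to 0.19, Chordc1 from -0.080 to 0.00041, Ddit4 from -0.48 to 0.30, Dnajb4 from -0.12 to 0.016, Herpud1 from -0.11 to 0.27, Hsf1 from -0.074 to 0.055, Hspa1a from -0.16 to 0.31, Pdia4 from -0.10 to 0.24, Sel1l from -0.058 to 0.036 and Xbp1 from -0.53 to 0.22. The cause was not tested. Signals of Trib3 and Vldlr were dim, which limits their precision.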
